A study of Mus musculus with 960 samples.

Results

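The regions described here are the accessible windows of a mouse breast tumour that lie in introns after the first. They were chosen by position alone, from a deposited list of 50000 windows of 500 bp on the mouse genome build mm9. A window was taken when its midpoint lay more than 1 kb from every protein-coding start site, in no exon, inside an intron of a protein-coding transcript of the GENCODE M1 annotation, and in the first intron of no such transcript. This rule took 7742 of the 50000 windows, or 15.5% (95% exact binomial interval 15.2 to 15.8%). Each window surrounds the summit of a called peak, and the 7742 later-intron windows came from 6648 called peaks. They were set beside 6496 windows in first introns and 8806 intergenic windows whose midpoint lay 10 to 100 kb from a start site.

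The cells came from a primary mammary tumour of the MMTV-PyMT mouse at 3 months of age, a transgenic strain in which the mouse mammary tumour virus promoter drives the polyomavirus middle T oncogene in mammary epithelium. Fixed cells were stained with antibodies, tagged in bulk by Tn5 transposase (ATAC-seq, which reads open DNA) and index-sorted 1 per well, in 960 wells. On 8 plates the stain was for EpCam, which marks epithelial cells, and HIF1a, the factor subunit that low oxygen stabilises, and on 2 plates it was for EpCam and CD45, which marks leukocytes. The authors called peaks on pooled cells, so the list is 1 sample with no replicate and no score per window, the wells behind it are not named, and neither depth per window nor a difference between stains could be measured. All p-values below compare chromosomes within this list, not animals, and intervals cover counting error only. Of the cell markers, the Epcam promoter was covered by 2 start-site windows (midpoint at most 1 kb from a start), and so were the promoters of the luminal keratin genes Krt8 and Krt18. Ptprc, which encodes CD45, Csf1r, a macrophage receptor, Col1a1, a fibroblast collagen, and the basal keratins Krt5 and Krt14 had no start-site window and no later-intron window. These markers were picked after their values were seen, and other members of their lists go the other way. Among listed genes with later-intron sequence, 21 of 22 luminal, 11 of 21 basal and myoepithelial, 8 of 26 immune, 4 of 25 fibroblast and 3 of 21 endothelial genes had a start-site window. In the same order 11, 10, 8, 9 and 3 genes held a later-intron window, with 9 in the basal gene Dst, 7 in Jag1 and 4 in Trp63.

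Introns are transcribed and then removed from the RNA, and those of mammals hold many enhancers, short stretches that bind transcription factors and act on promoters at a distance. The first intron starts beside the promoter and often holds regulatory elements of the same gene. Later introns lie farther downstream, and an enhancer in them can act on its host gene or on a neighbour. Epithelial enhancers are known to be bound by factors such as AP-1, the ETS, grainyhead-like (GRHL), TFAP2 and nuclear factor I (NFI) families, and CTCF organises loops between distant sites.

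To show what such windows hold, the central 150 bp are printed for 1 window in each of 8 genes that are among the hosts with the most later-intron windows. In each gene the window with the most kinds of motif in its centre was taken, so the number of motifs in these examples follows from the choice. Sequences are from mm9, plus strand, 5′ to 3′, and capitals mark matches to any of the 26 motifs described further on.
Fgfr2 (annotated span, inside Fam53b), chr7:139960361-139960510: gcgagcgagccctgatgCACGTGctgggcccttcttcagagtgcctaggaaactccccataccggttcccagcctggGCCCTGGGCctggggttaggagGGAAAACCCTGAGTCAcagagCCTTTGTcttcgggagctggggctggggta
2010111I01Rik, chr13:63313125-63313274: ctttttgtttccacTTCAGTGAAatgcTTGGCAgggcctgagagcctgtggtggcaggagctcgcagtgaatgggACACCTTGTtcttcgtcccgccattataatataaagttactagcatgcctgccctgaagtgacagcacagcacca
Nfix, chr8:87289041-87289190: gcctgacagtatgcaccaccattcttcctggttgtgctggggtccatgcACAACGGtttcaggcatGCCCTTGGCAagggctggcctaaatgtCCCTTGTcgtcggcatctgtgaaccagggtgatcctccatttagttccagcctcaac
Nav2, chr7:56857115-56857264: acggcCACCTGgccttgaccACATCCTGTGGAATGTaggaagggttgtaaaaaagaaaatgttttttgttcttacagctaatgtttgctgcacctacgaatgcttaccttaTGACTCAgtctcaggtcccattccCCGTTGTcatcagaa
Ppfibp2, chr7:114823939-114824088: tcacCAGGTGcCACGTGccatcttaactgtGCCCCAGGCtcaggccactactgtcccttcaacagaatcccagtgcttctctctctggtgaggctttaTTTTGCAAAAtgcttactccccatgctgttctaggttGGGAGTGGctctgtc
Dapk1, chr13:60824173-60824322: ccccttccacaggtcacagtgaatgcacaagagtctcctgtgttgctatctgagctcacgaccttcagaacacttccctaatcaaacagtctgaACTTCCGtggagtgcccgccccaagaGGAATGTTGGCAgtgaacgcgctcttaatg
Runx1, chr16:92612055-92612204: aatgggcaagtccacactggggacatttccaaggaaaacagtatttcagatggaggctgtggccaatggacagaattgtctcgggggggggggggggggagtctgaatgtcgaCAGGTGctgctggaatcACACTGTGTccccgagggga
Casz1, chr4:148242255-148242404: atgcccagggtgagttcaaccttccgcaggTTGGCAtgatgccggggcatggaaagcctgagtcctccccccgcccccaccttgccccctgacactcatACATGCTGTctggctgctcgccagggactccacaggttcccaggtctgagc

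The window printed under Fgfr2 is there only through a very long annotated intron of that gene, described further on. It also lay in an 11410 bp intron of Fam53b, whose start site was the nearest, at 8163 bp. By the lowest number over transcripts, the 8 examples lay in introns 2 to 36 of their hosts and between 8163 and 83765 bp from the nearest start site. The Nfix window lay in intron 2 of Nfix, 8179 bp from a start site, and its capitals include an NFI half-site that overlaps a TFAP2 match. The Nav2 window was the one farthest along its transcript, in intron 36, and held a TEAD and an AP-1 match. The Ppfibp2 window held C/EBP, KLF, TFAP2, E-box and HIF matches within 150 bp.

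Later introns held fewer windows per length of sequence than first introns. Counting all bases that meet the same position rule, later introns made up 586.2 Mb and held 13.2 windows per Mb (12.9 to 13.5), against 22.7 per Mb (22.2 to 23.3) over 285.9 Mb of first introns. The ratio was 0.581, and the density was higher in later introns on 0 of 20 chromosomes (paired permutation test over chromosomes, two-sided, p = 1e-05, the smallest that 100000 resamples can give). Later introns also lay farther from start sites, with a median distance of 27162 bp (quartiles 11306 and 59095 bp), against 9164 bp for first-intron windows. With first-intron densities applied to later introns at like distance, 17.0 windows per Mb would be reached, and the observed 13.2 per Mb was 0.777 of that (permutation p = 1e-05, higher on 2 of 20 chromosomes).

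Split by distance, the difference from first introns passed the test up to 50 kb from a start site. At 1 to 2 kb, later introns had 31.0 windows per Mb and first introns 53.3, and at 10 to 20 kb later introns had 15.7 and first introns 24.7. Later introns were lower in each of the 5 distance classes up to 50 kb (permutation tests over 20 chromosomes, Benjamini-Hochberg adjusted over 7 classes, p between 3.5e-05 and 0.0318). At 50 to 100 kb, 12.5 windows per Mb in later introns and 13.1 in first introns did not pass the test (adjusted p = 0.699), and beyond 100 kb the values were 6.56 in later and 5.26 in first introns (adjusted p = 0.391). These tests by distance were added after the pooled result was known, and whether the ratio differs between classes was not tested.

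**Figure D1:**
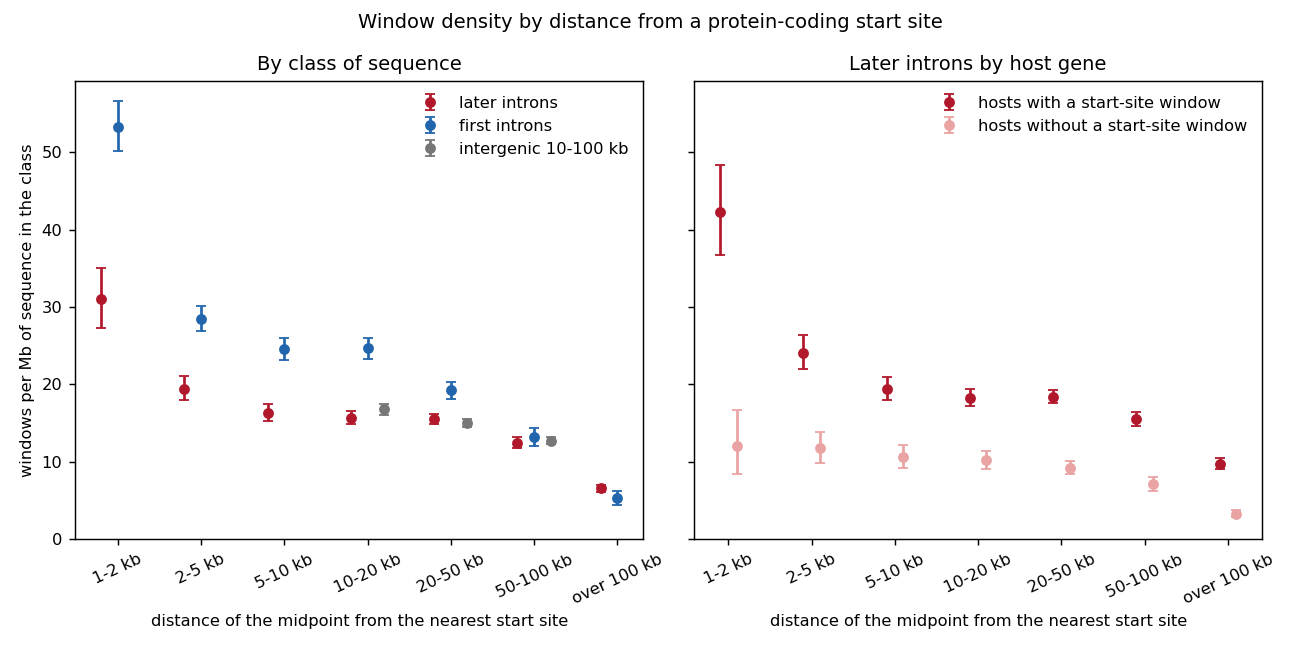
Windows per Mb of sequence (y axis) by distance of the midpoint from the nearest protein-coding start site (x axis). Points are densities and bars exact 95% Poisson intervals. On the left are later introns, first introns and intergenic sequence. On the right are later introns split by whether their gene has a start-site window. The genes are labelled hosts there, but those without any later-intron window are counted too. Later introns lie below first introns up to 50 kb, and genes with a start-site window lie above genes without one in all 7 distance classes.

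Against intergenic sequence 10 to 100 kb from a start site, later introns differed little. Their 13.2 windows per Mb compare with 14.6 per Mb in intergenic sequence (ratio 0.907, permutation test over 20 chromosomes p = 0.0110, higher in later introns on 4 of 20). The distances are unlike, since the later introns counted lay at any distance over 1 kb. Of their sequence 148.8 Mb lay beyond 100 kb, at 6.56 windows per Mb. At 1 to 2, 2 to 5 and 5 to 10 kb they held 31.0, 19.5 and 16.3 per Mb. The ratio thus does not show a deficit at like distance. With 1 window kept per called peak the ratio was 0.935 and no longer passed the threshold (permutation p = 0.0537). Within distance classes the values were 15.7 in later introns and 16.8 in intergenic sequence at 10 to 20 kb, 15.5 and 15.0 at 20 to 50 kb, and 12.5 and 12.7 at 50 to 100 kb, with overlapping Poisson intervals in each.

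Genes with an accessible promoter held more windows in their later introns. Later introns of genes that had a start-site window of their own held 16.8 windows per Mb, against 7.31 per Mb in genes without one, a ratio of 2.29 that was higher on 20 of 20 chromosomes (permutation p = 1e-05). At like distance from a start site, 6117 windows were observed in genes with a start-site window, against 3032 expected from the densities of genes without, a ratio of 2.02 (permutation p = 1e-05, higher on 20 of 20 chromosomes). The ratio was 3.50 at 1 to 2 kb, 1.83 at 5 to 10 kb and 2.93 beyond 100 kb, and each of the 7 classes passed the test (adjusted p between 3.5e-05 and 7e-05). Of the 7742 windows, 6136 (79.3%, exact interval 78.3 to 80.2%) had a host with a start-site window. As background, 10266 of the 16880 genes with later-intron sequence had one. Apart from sequence shared by both kinds of gene, they held 364.9 Mb of later introns, against 219.7 Mb in genes without. For 1299 windows (16.8%) neither the host nor the gene with the nearest start site had a start-site window, a share with no background measured.

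The host was not always the gene with the nearest promoter. For 5632 windows (72.7%, 71.7 to 73.7%) the nearest start site belonged to a host, and for 2110 (27.3%, 26.3 to 28.3%) it belonged to another gene. The like share over all later-intron sequence was not measured, so these values do not tell windows apart from the sequence around them. Of all later-intron windows 6.11% lay within 1 kb of the start of a transcript other than a protein-coding one. Only 82 windows (1.06%) lay in introns of several genes. The files do not say which gene a window acts on.

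Within later introns the density was highest in the second intron. It was 17.3 windows per Mb (16.6 to 18.0) in intron 2, 13.7 in intron 3, 12.7 in intron 4, 11.8 in introns 5 and 6, 11.6 in introns 7 to 10 and 10.5 (9.89 to 11.0) in intron 11 or later, where a base in several introns was given its lowest number. Intron 2 also stood above intron 3 within distance classes, with 22.3 and 16.8 windows per Mb within 10 kb of a start site and 20.7 and 17.2 at 10 to 50 kb. Beyond 50 kb the values were 10.4 in intron 2 and 8.97 in intron 3, with overlapping intervals. No test was run across intron numbers, which share genes.

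Long introns were poor in windows. Introns under 2 kb held 15.5 windows per Mb and those of 20 to 50 kb held 15.3, while introns of 50 to 100 kb held 11.5 (10.8 to 12.3) and introns over 100 kb held 7.59 (7.03 to 8.18). The median length of the shortest intron around a window was 11472.5 bp. Sequence within 100 bp of an exon held 20.1 windows per Mb (18.5 to 21.8), sequence from 100 to 250 bp away 16.1, and sequence over 10 kb away 9.31. Neither intron length nor exon distance was split by distance from a start site. Density in later introns fell with that distance, from 31.0 per Mb at 1 to 2 kb to 6.56 beyond 100 kb. Whether length or exon distance matters at like distance was not tested. For 1183 windows (15.3%) the midpoint lay within 250 bp of an exon, so that the window itself reached or touched it.

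**Figure D2:**
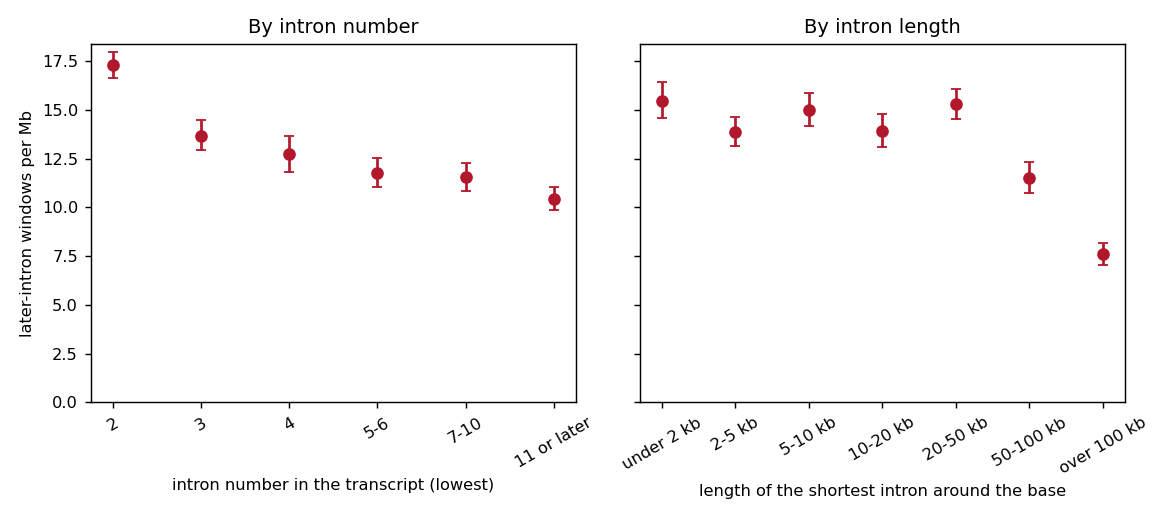
Later-intron windows per Mb of later-intron sequence (y axis) by intron number (left) and by the length of the shortest intron around the base (right). Bars are exact 95% Poisson intervals. Intron 2 stands highest at 17.3 per Mb and introns over 100 kb lowest at 7.59 per Mb.

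Later-intron windows were less often part of broad accessible regions. A called peak with several summits gave several windows, and 27.5% of later-intron windows (2127 of 7742) came from a called peak with 2 or more windows in the list, against 32.7% of first-intron windows (permutation over 20 chromosomes p = 0.00056, higher in later introns on 2 of 20) and 31.0% of intergenic windows (p = 0.00056, higher on 3 of 20). When windows had to lie over 2 kb from start sites, the difference from first introns was -2.29 percentage points and did not pass the threshold (permutation p = 0.09). The share of windows with another window of the list within 5 kb was 57.3% in later introns, 70.0% in first introns and 57.5% in intergenic sequence. At the other end, 6.88% of later-intron windows had no other window within 50 kb, against 3.06% of first-intron and 6.43% of intergenic windows.

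The sequences were of moderate GC content and poor in CpG. Mean GC content was 50.3% in later-intron windows, 51.3% in first-intron and 50.8% in intergenic windows, and both differences passed the test (permutation over 20 chromosomes p = 1e-05 and 0.00556). The ratio of observed to expected CpG was 0.243 in later introns, against 0.261 in first introns and 0.283 in intergenic windows (permutation p = 1e-05 each). Over 2 kb from start sites the CpG difference from first introns shrank to -0.000798 (permutation p = 0.362). Only 93 later-intron windows (1.20%) had the composition of a CpG island, taken as GC of at least 55% and a CpG ratio of at least 0.65, against 3.19% of first-intron windows, 3.99% of intergenic windows and 60.1% of start-site windows. The windows' own flanks, 500 bp centred 1500 bp to either side and free of exons and other windows, had 45.4% GC, against 50.1% in the 7017 windows that had such a flank (permutation p = 1e-05, higher in windows on 20 of 20 chromosomes).

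Motifs of 26 factors or families were searched in the windows and in 11539 flanks, on both strands and with overlaps between motifs kept. Of these, 17 were more frequent in later-intron windows than in their flanks, 3 were less frequent and 6 did not pass the test (paired permutation test over 20 chromosomes, Benjamini-Hochberg adjusted over 78 tests of 26 motifs in 3 comparisons). A match is a string of letters, and binding was not measured.

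The NFI half-site TTGGCA, bound by the NFI transcription factors, had the largest difference in percentage points. It was found in 43.6% of windows and 23.0% of flanks (adjusted p = 8.67e-05, higher on 20 of 20 chromosomes). The same letters read backwards were in 4.95% of windows and 4.40% of flanks. They keep the base composition but gain a CpG, so this reverse is not matched in CpG. Of all 50000 windows 33.2% held the half-site. The full palindrome, a pair of half-sites facing each other, was found in only 13 of the 7742 windows, too few to pass the test (adjusted p = 0.100). The half-site is the one in capitals in the 2010111I01Rik, Nfix, Dapk1 and Casz1 windows printed above.

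CTCF had the largest ratio among the motifs that passed. Its motif was in 2.24% of windows and 0.355% of flanks, a ratio of 6.30 (adjusted p = 8.67e-05, higher on 17 of 20 chromosomes). Of all windows in the list 1.788% held it. Restricted to called peaks with 2 or more windows in the list, the CTCF difference did not pass the threshold (0.903 percentage points, adjusted p = 0.251).

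Motifs of epithelial factors were also more frequent in windows. TFAP2 (GCCNNNGGC), a family active in mammary and skin epithelium, was in 22.6% of windows and 9.61% of flanks, a ratio of 2.35. Its reversed letters gain CpG and were in 2.02% of windows and 0.659% of flanks, a larger ratio. Unlike the NFI half-site and CTCF, the TFAP2 motif was less frequent in later introns than in the whole list. It was in 22.9% of all later-intron windows, 29.2% of all windows in the list and 39.6% of start-site windows. The ETS motif AGGAAGT was in 19.2% of windows and 12.6% of flanks (reversed letters 11.7% and 10.7%). Its CpG-containing form CGGAAGT was in 2.12% of windows and 1.26% of flanks, a difference of 0.867 percentage points, and its reversed letters differed by as much, with 9.85% of windows and 8.96% of flanks. GRHL (AACCNGTT), the motif of factors that keep epithelial identity, was in 5.80% of windows and 3.35% of flanks, and its reversed letters were also more frequent in windows (5.87%) than in flanks (4.45%). AP-1 (TGANTCA), the motif of Fos and Jun dimers, was in 18.2% of windows and 14.2% of flanks, while its letters read backwards went the other way, with 11.9% of windows and 13.1% of flanks. TEAD (GGAATGT), which partners YAP, was in 8.99% of windows and 7.24% of flanks, again with the reversed letters lower in windows (6.10%) than in flanks (6.66%). For each of these motifs the difference between windows and flanks passed the test (adjusted p between 8.67e-05 and 0.000501). Among the 2127 windows of called peaks with 2 or more windows, however, AP-1 (adjusted p = 0.116), CGGAAGT (0.116) and TEAD (0.922) did not pass.

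As for CGGAAGT, the reversed letters of 4 further motifs differed about as much as the motif, or more. The HIF core ACGTG, the site of the oxygen-regulated factors, was in 25.0% of windows and 22.1% of flanks (adjusted p = 8.67e-05). Its reverse was in 60.4% of windows and 56.2% of flanks. The CpG in CGGAAGT and in the HIF core is lost in their reversed letters, so these reverses are not matched in CpG. SOX (ACAANGG) was in 28.9% of windows and 23.3% of flanks, and its reverse in 33.3% and 27.9%. KLF (CCACNCCC) was in 16.7% of windows and 14.2% of flanks, and its reverse in 14.5% and 11.8%. The fourth was E2F (TTCCCGC), at 2.42% of windows and 1.35% of flanks with a reverse at 2.55% and 1.27%. Among the rest, the E-box CAGGTG was in 38.5% of windows and 31.8% of flanks, C/EBP (TTGCNNAA) in 22.0% and 17.9%, and NF-kB (GGGNNTTCC) in 8.04% and 5.61%. Their reversed letters were in 17.4% of windows and 17.1% of flanks for the E-box, 5.63% and 4.79% for C/EBP, and 8.35% and 6.80% for NF-kB. The reverse of C/EBP gains a CpG. CRE (TGACGTCA) and FOX (TGTTTAC) passed with adjusted p of 0.0145 and 0.0183, but neither passed in the central 200 bp (adjusted p = 0.0568 and 0.140), and FOX did not pass with 1 window per called peak (adjusted p = 0.103). In called peaks with 2 or more windows the HIF core (adjusted p = 0.148), KLF (0.229), C/EBP (0.422), CRE (0.422) and FOX (0.158) did not pass.

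The 3 motifs less frequent in windows than in flanks are rich in A and T, while the windows were richer in GC than flanks. The part of GC content in the motif differences was not tested beyond the reversed letters. Reversed letters that gain a CpG, as for the NFI half-site and POU, or lose one are a weak control for composition. AGATAAG, the letters that GATA factors bind, was in 4.50% of windows and 6.80% of flanks, POU (ATGCAAAT) in 1.57% and 2.79%, and TCF/LEF (CTTTGAT) in 6.31% and 7.43%. The reversed letters were also less frequent in windows, at 4.52% and 5.28% for GATA, 0.228% and 0.321% for POU, and 5.33% and 6.24% for TCF/LEF. In called peaks with 2 or more windows POU (adjusted p = 0.0666) and TCF/LEF (adjusted p = 0.500) did not pass. RUNX (TGTGGTT), STAT (TTCNNNGAA) and the steroid receptor site (ACANNNTGT) did not pass the test, with 12.8%, 15.3% and 16.1% of windows and 12.1%, 14.5% and 16.1% of flanks. The p53 family and estrogen receptor palindromes were found in 2 and 5 of the 7742 windows and did not pass either.

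**Figure D3:**
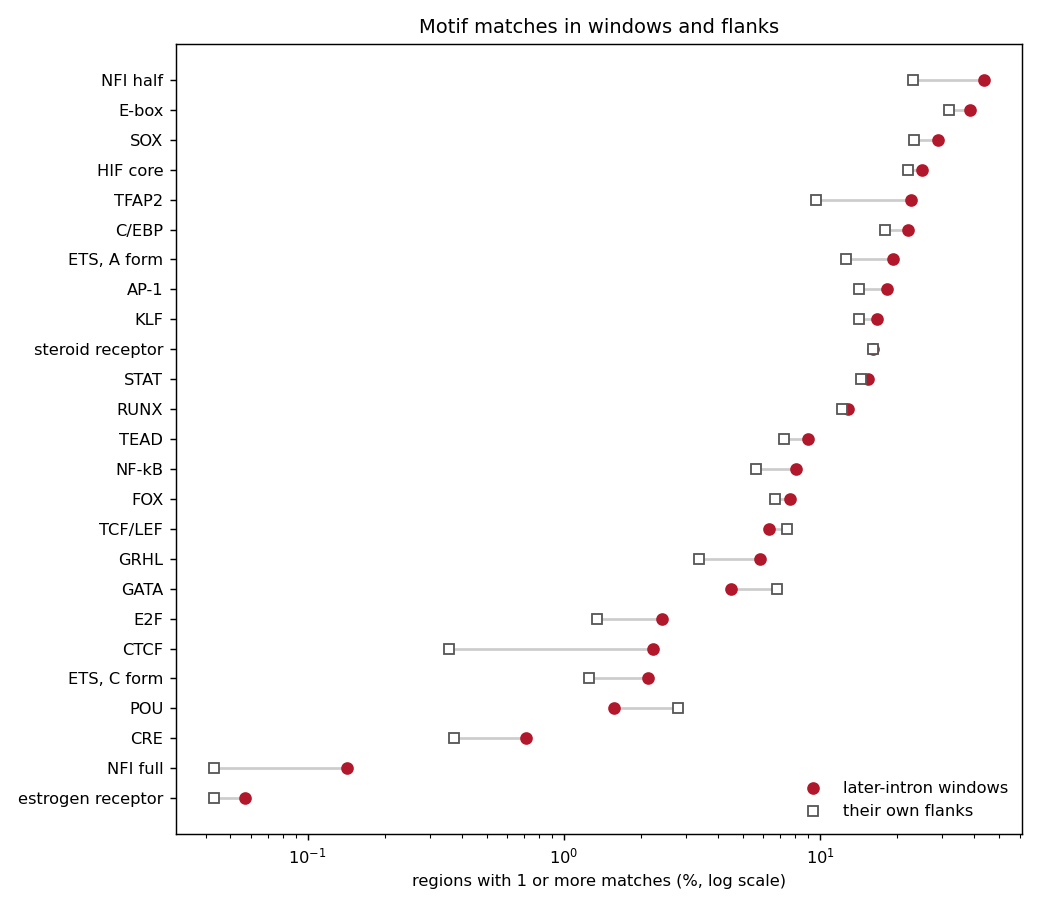
Share of regions with 1 or more motif matches (x axis, percent on a log scale) for each motif (rows), in later-intron windows (filled circles) and in their own flanks (open squares). The ETS A form is AGGAAGT and the C form CGGAAGT, and the p53 family motif, with no match in flanks, is left out. The NFI half-site stands at 43.6% of windows and 23.0% of flanks, and CTCF at 2.24% and 0.355%.

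Between classes of windows the motif shares were closer than between windows and flanks. Against first-intron windows, 2 of 26 motifs were more frequent in later introns and 1 was less frequent. CTCF was in 2.27% of later-intron and 1.15% of first-intron windows (adjusted p = 0.00156, higher on 18 of 20 chromosomes). The NFI half-site was in 43.3% of later-intron and 40.5% of first-intron windows (adjusted p = 0.0321), but over 2 kb from start sites this difference was 1.35 percentage points and did not pass (adjusted p = 0.533). KLF was in 17.3% of later-intron and 20.3% of first-intron windows (adjusted p = 0.00324), a difference that did not pass in the central 200 bp (adjusted p = 0.0858). In called peaks with 2 or more windows none of the 3 passed (adjusted p = 0.118 for the NFI half-site, 0.447 for CTCF and 0.0525 for KLF).

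Against intergenic windows, AP-1 was the most abundant of the 4 motifs that were less frequent in later introns. It was in 18.0% of later-intron and 20.6% of intergenic windows (adjusted p = 0.00495, higher in later introns on 5 of 20 chromosomes). The ETS form CGGAAGT was in 2.26% of later-intron and 3.37% of intergenic windows, KLF in 17.3% and 20.2%, and POU in 1.59% and 2.31% (adjusted p = 0.0115, 0.00156 and 0.0426). The NFI half-site was in 43.3% of later-intron and 40.5% of intergenic windows (adjusted p = 0.0426), a difference that did not pass with 1 window per called peak (adjusted p = 0.179). Of the 4 lower motifs, KLF alone passed in each alternative, and AP-1 did not pass in the central 200 bp (adjusted p = 0.114) or in called peaks with 2 or more windows (adjusted p = 0.326). CTCF, at 2.27% of later-intron and 2.59% of intergenic windows, did not pass (adjusted p = 0.199).

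Some motifs gathered at the summit. In the central 100 bp of later-intron windows the NFI half-site had 1.70 matches per kb, against 0.915 per kb in the outer 300 bp that lie farthest from the midpoint, a ratio of 1.86. The ratio was 2.26 for CTCF, 1.72 for TFAP2, 1.45 for GRHL, 1.36 for AP-1 and 1.24 for the ETS motif AGGAAGT. It was similar or higher for motifs of other kinds, with 1.81 for CRE, 1.61 for E2F and 1.24 for KLF. The full NFI palindrome had 3.42, from 13 matches. The HIF core had a ratio of 1.00 and the steroid receptor site 1.00, so neither was denser at the centre. GATA, at 0.672, was sparser at the centre. These ratios are a description, with no test.

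**Figure D4:**
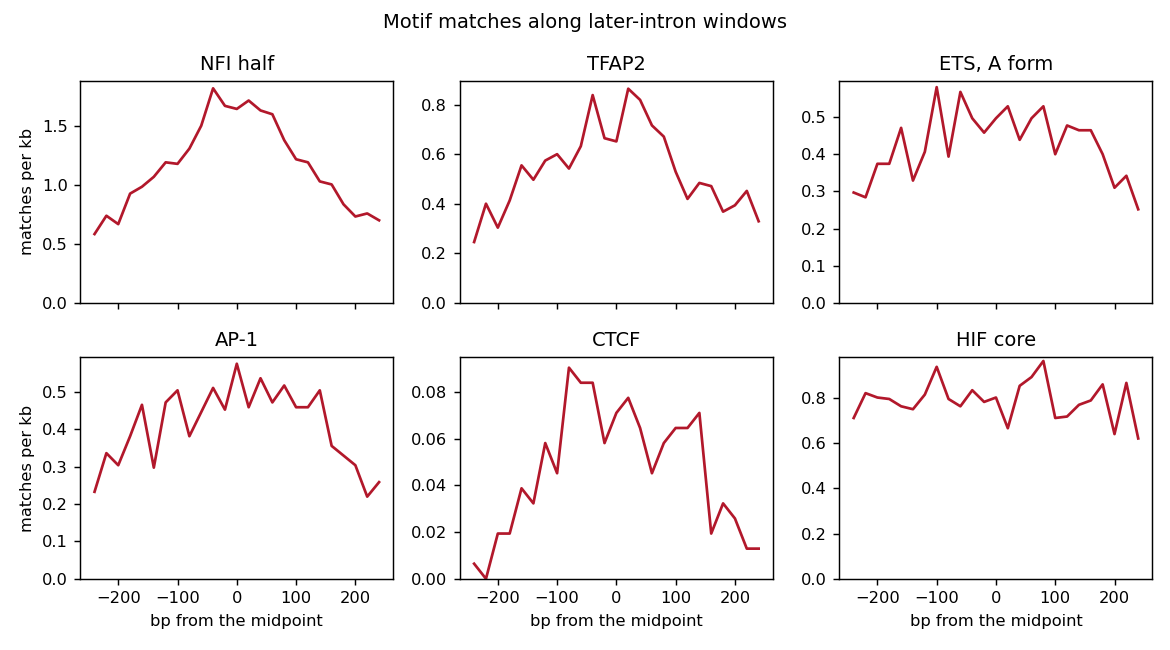
Matches per kb (y axis) along later-intron windows, by distance from the midpoint in bp (x axis, steps of 20 bp), for 6 motifs. The NFI half-site and TFAP2 are densest near the midpoint, with central-to-outer ratios of 1.86 and 1.72, and the HIF core, with a ratio of 1.00, is flat.

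Of 16880 protein-coding genes with later-intron sequence, 3140 (18.6%) held at least 1 later-intron window. Of these hosts 1606 had 1 window, 921 had 3 or more and 99 had 10 or more. Genes with a start-site window were hosts in 22.8% of cases and genes without one in 12.1%, with a median of 14.1 and 8.24 kb of later-intron sequence.

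The gene with the most windows was Fgfr2, a receptor for fibroblast growth factors, but its count rests on the annotation. GENCODE M1 gives Fgfr2 a transcript whose second intron is 2956986 bp long, and all 57 windows lay in it, between chr7:137431931 and 140262394. Starts of 31 other protein-coding genes lie inside the annotated span, 24 of the 57 windows had the Fgfr2 intron as their shortest intron, and 5 had an Fgfr2 start site as the nearest. The start sites of Lhpp and Ctbp2 were nearest for 11 and 10 windows. The same holds for Arfip1, a regulator of ARF GTPases, whose 18 windows lay in an intron of 1244595 bp and were none of them nearest to an Arfip1 start site, with Tmem154 nearest for 12. Over the whole list only 49 windows (0.633%) lay in no intron shorter than 500 kb, and leaving out such sequence, an alternative added after seeing the data, changed no call.

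Other hosts carried clusters within introns of more common length. Nfix, an NFI transcription factor, held 23 windows in 57.4 kb of later-intron sequence (400.9 per Mb), 20 of them in intron 2, and had 3 start-site windows. Of the 23 windows, 8 were nearest to an Nfix start site and 14 to G430095P16Rik and 1 to Lyl1. The 2010111I01Rik gene, which RefSeq calls Aopep, an aminopeptidase, held 25 windows, of which 14 lay in intron 12. Runx1, a transcription factor of blood and epithelium, held 19 windows in introns 2, 3 and 4, and Casz1, a zinc finger factor, held 18, with 12 in intron 2. In Runx1, Casz1 and 2010111I01Rik every window had a start site of the host as the nearest.

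In some other hosts many windows lay nearer to a neighbour, while in others most lay nearest to the host. Commd10, a COMM domain protein, held 23 windows in intron 6, and Sema6a, a semaphorin, had the nearest start site for 21 of them. Ppfibp2, a liprin of cell adhesion, held 20 windows, of which 15 were nearest to 5330417H12Rik and 5 to Cyb5r2. Dapk1, a death-associated kinase, held 19, with 11 nearest to BC051665. Nav2, a neuron navigator protein, held 21 windows, with 16 nearest to its own start sites and 5 to Dbx1. D18Ertd653e, called Ldlrad4 by RefSeq, held 20, all nearest to its own start sites. Tpcn1, an endolysosomal cation channel, held 16 in 46.7 kb, with 15 nearest to its own start sites and 1 to Slc24a6.

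Among genes with at least 20 kb of later-intron sequence and 4 windows, the densest were Nfix, Smad7, Gas6, Boc, Hs1bp3, Tpcn1, Mllt1 and Snx30. In that order their windows came from 19, 8, 3, 7, 6, 9, 5 and 7 called peaks, so the windows of a gene are not all separate sites. Smad7, an inhibitor of TGF-beta signalling, held 9 windows in 22.6 kb (397.6 per Mb), all in intron 2. Gas6, a ligand of the Axl receptor family, held 10 windows (384.5 per Mb), and Boc, a hedgehog co-receptor, held 12 (371.6 per Mb), of which 9 were nearest to Wdr52. Hs1bp3 held 8 windows (345.6 per Mb). Mllt1, a subunit of elongation complexes, held 10 (321.8 per Mb), and Snx30, a sorting nexin, held 12 (303.97 per Mb). For Snx30 the start of Slc46a2 was nearest for 10.

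Some called peaks gave many later-intron windows, and those with the most are named here. The longest of those named, at 3578 bp, was the one in 2010111I01Rik, with 5 windows. A called peak in intron 2 of Tpcn1 gave 7 windows over 3261 bp (chr5:121015368-121018628), all 7 of its windows in the list, and lay at least 20243 bp from a start site. A called peak in Igsf8, an immunoglobulin-family membrane protein, gave 7 later-intron windows of 10. In intron 3 of Ppfibp2 a called peak gave 6 windows over 3418 bp, and peaks in Zc3h12a, an RNase that limits inflammation, and Gm12216 gave 5 each, a count shared by peaks in 2010111I01Rik, Tiam1 and Ttc7. None of these windows had CpG island composition. At the other end, 5779 of the 6648 called peaks gave a single later-intron window.

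The longest later-intron sequence without any window belonged to Cntnap2, Gpc5, Csmd1, Nrxn3 and Csmd3, with 1610, 1360, 1292, 1253 and 1052 kb. Cntnap2 and Nrxn3 encode synaptic or axonal adhesion proteins. Cntnap2, Csmd1 and Csmd3 had no start-site window, and Gpc5 and Nrxn3 had 1 each.

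Gene lists were set beside the 18.6% of all genes that were hosts and the 13.2 windows per Mb of all later-intron sequence. The lists were chosen with earlier results of these data known and are given as counts. Mammary and epithelial transcription factors had the highest density, at 75.3 windows per Mb and a window in 22 of 26 genes with later-intron sequence (84.6%), and 66.5 per Mb without Nfix. Their genes are long, with a median of 50.6 kb of later-intron sequence against 11.6 kb over all genes. Besides Nfix, the NFI genes Nfib, Nfia and Nfic held 16, 10 and 9 windows, and Tcf7l2, Etv6 and Grhl1 held 15, 12 and 8. Tead1 and Tead4, with 3 and 4 start-site windows and 11 and 4 first-intron windows, held no later-intron window.

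Luminal genes came next, with 43 windows at 65.0 per Mb in 11 of 22 genes. Gata3, a luminal regulator, held 10 windows in 17.4 kb, Ehf, an epithelial ETS factor, held 6 and Epcam held 6, and all 22 of these were nearest to their host's own start. Elf5, an alveolar ETS factor, and Esrp1, an epithelial splicing regulator, held 5 each. The hormone receptor genes Esr1 and Pgr held none in 283.3 and 58.7 kb, although Esr1 had 3 and Pgr 2 start-site windows. First introns held 3 windows in Esr1 and 0 in Pgr. Without Gata3 the luminal list stood at 51.2 per Mb.

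Hypoxia response genes stood at 38.7 windows per Mb, with 28 windows in 13 of 33 genes (39.4%), and at 29.1 per Mb without Hk1. Hk1, a hexokinase, held 8, with 4 nearest to Tacr2 and 4 to Hk1. Slc2a1, the glucose transporter GLUT1, held 5 windows in intron 2, and Car9, a carbonic anhydrase used as a hypoxia marker, held 2 in 3.59 kb. Both Car9 windows came from 1 called peak. Their midpoints lay 1552 and 1963 bp from the Car9 start site and 29 and 65 bp from an exon. Vegfa, the angiogenic factor, held 1. The oxygen sensors Egln1 and Egln3 and Hif1a held none.

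Basal and myoepithelial genes stood at 29.5 per Mb (10 of 21 genes), with 9 windows in Dst, 7 in Jag1, a Notch ligand, and 4 in Trp63, the basal transcription factor p63. Chromatin regulators stood at 22.3 per Mb (13 of 25), with 14 in Arid1b, a subunit of a chromatin remodelling complex. ErbB and growth factor genes stood at 22.1 per Mb (15 of 30), or 19.4 without Fgfr2, with 12 windows in Igf1r. Junction and polarity genes, at 14.5 per Mb (14 of 25), were close to all later-intron sequence, and Cdh1, which encodes E-cadherin, held 5 windows in intron 2.

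Lists of other cell types were at or below the density of all later introns. Endothelial genes stood at 10.1 per Mb (4.86 to 18.7) with windows in 3 of 21 genes, immune genes at 9.10 (5.63 to 13.9) in 8 of 26, and fibroblast genes at 6.13 (3.35 to 10.3) in 9 of 25. Of the 3 leading genes of each list, windows in Lcp2 (3), Vwf (3), Erg (2), Bicc1 (2) and Tcf4 (2) were all nearest to their host's own start, as were 5 of 8 in Dock8, the immune gene with the most. In the other 3 genes most or all were nearest to a neighbour, with 3 of 3 in Fli1 nearest to Kcnj1, 3 of 5 in Pecam1 to Tex2, and 3 of 4 in Mmp2 to Lpcat2. Long neuronal genes had the lowest density, 2.37 per Mb (1.81 to 3.05), with 61 windows over 25.7 Mb in 14 of 29 genes. They were listed for their length, with a median of 822.8 kb of later-intron sequence against 11.6 kb over all genes. By share of hosts, neuronal (48.3%), fibroblast (36%) and immune genes (30.8%) stood above the 18.6% of all genes, and endothelial genes (14.3%) below. Auts2 held 15 and Macrod2 14, of which 11 in Macrod2 were nearest to Flrt3.

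**Figure D5:**
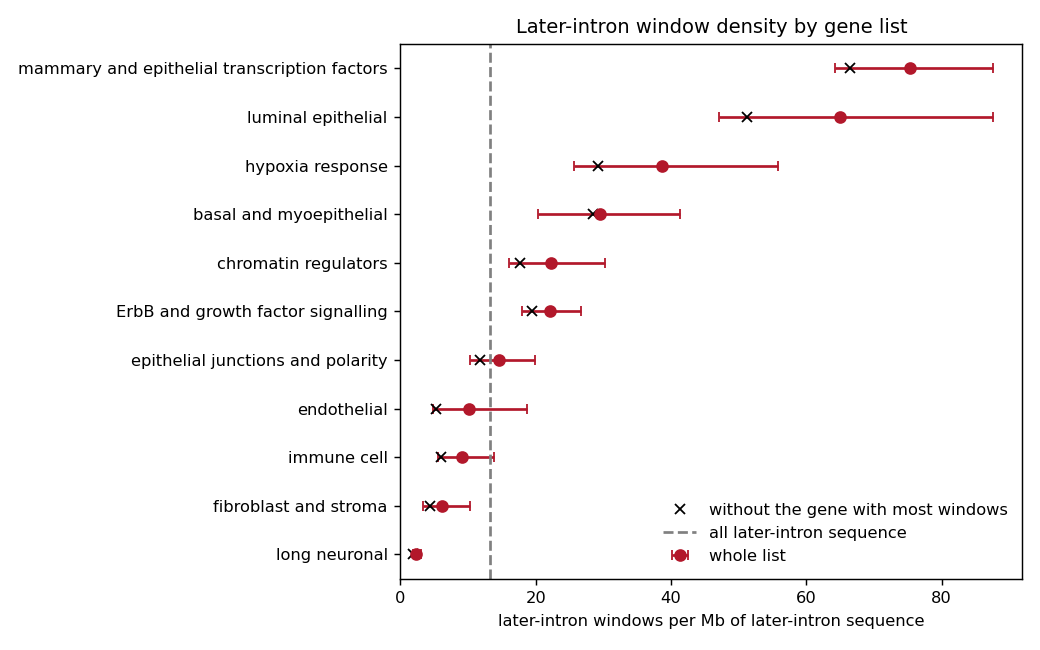
Later-intron windows per Mb of later-intron sequence (x axis) for 11 gene lists (rows). Circles are whole lists with exact 95% Poisson intervals, crosses are the lists without their gene with the most windows, and the dashed line is all later-intron sequence at 13.2 per Mb. Mammary and epithelial transcription factors stand highest at 75.3 and long neuronal genes lowest at 2.37 per Mb.

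Chromosome X was poor in later-intron windows. It held 73 windows at 2.87 per Mb, against a median of 13.5 per Mb over the 19 autosomes, which ranged between 9.74 and 19.0 per Mb. An exact permutation over the 20 chromosomes gave p = 0.05, the smallest it can give. First introns on chromosome X held 6.22 windows per Mb. Leaving out chromosome X changed no call in the comparisons above.

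The members nearest the distance limit were 1001, 1003 and 1003 bp from a start site, and 38 lay between 1001 and 1100 bp.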

How the data were processed

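According to the study's methods and the labels, the authors mapped reads to mm9 with Bowtie2 version 2.1.0, removed low-quality, duplicate (Picard version 1.79) and mitochondrial reads, and called summits on pooled single cells with MACS2 (no version stated) at a q-value limit of 0.05. The deposited list gives positions and names in no unit of signal. Peaks were ranked by q-value and cut at 50000, so weaker regions are absent, and depth is unknown.

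Windows were placed on the mm9 genome and GENCODE M1 (45939 start sites of 22350 protein-coding genes) with Python 3.11.15, numpy 2.4.6, scipy 1.17.1 and pandas 2.3.3. Densities count ungapped bases that meet the same rule. Classes were compared by paired sign-flip permutation over 20 chromosomes (100000 resamples, two-sided, threshold 0.05). Intervals are 95% Poisson or Clopper-Pearson. Procedures were tested on simulated data.

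The windows, gene lists and motifs were chosen with earlier results of these data known. Genes named by rule were the 12 hosts with most windows, the 8 densest, the 5 with most window-free sequence, up to 3 with and 2 without windows per list, and the 5 leading called peaks. Further genes (such as Nfia, Elf5, Vegfa, Egln1, Ttc7 and the markers) were added after their values were seen. Of 324 list entries, 318 matched by symbol and 6 by another symbol. Of the gene lists and genes, 1 each is not reported here. RefSeq names are from GRCm38.p6.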

Additional observations from a re-analysis of the deposited data

How the results depend on the processing

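The densities against first introns, at like distance, and by host promoter kept their direction and side of the threshold under all alternatives run: exons of protein-coding transcripts only, a 2 kb limit, no windows near other start sites, 1 window per called peak, only called peaks with 2 or more windows, no chromosome X, and introns over 500 kb left out (the last added after seeing the data). The exceptions among the main results were these. With the 2 kb limit, the share from broad called peaks against first introns was -2.29 points and the CpG ratio against first introns -0.000798, neither past the threshold, and 1 motif was higher against first introns. Without windows near other start sites the host share was 17.7% and 0 motifs were higher against intergenic windows. With 1 window per called peak the density ratio against intergenic sequence was 0.935 and did not pass the test, 1 motif was higher against first introns, and 0 were higher and 2 lower against intergenic windows. In called peaks with 2 or more windows, there were 2127 windows, 4.95% of genes were hosts, the GC difference from intergenic windows was -0.510 and did not pass, 8 motifs were higher and 1 lower against flanks, 0 were higher against first introns, and 0 were higher and 1 lower against intergenic windows. In the central 200 bp, 0 motifs were lower against first introns, and 2 were higher and 1 lower against intergenic windows. Where fewer windows were used, the power of the tests was lower by construction. An alternative planned for windows outside repeats was not run, since the genome used holds no repeat mask. No paired analysis was possible because the list pools wells that are not named and holds no value per well.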

Other observations

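Windows differed in how many motif kinds they held. Of the 7742 windows, 2.22% held none of the 26 motifs, 1951 (25.2%) held 3 kinds, and 1 window held 10. The windows in single host genes differed in motif content. Of the 57 windows in the annotated Fgfr2 intron, 27 held the NFI half-site, 15 TFAP2 and 11 AP-1. Of 12 windows in Boc, 8 held the NFI half-site and 0 AP-1, and of 23 windows in Commd10, 12 held the NFI half-site and 0 AP-1. In Runx1, 7 of 19 windows held AP-1 and 7 the NFI half-site, and in 2010111I01Rik 9 of 25 held each. In Gata3, 4 of 10 windows held AP-1 and 2 the NFI half-site. In Nfib, 6 of 16 windows held the NFI half-site, and in Nfix 9 of 23. These counts were looked up after the genes were named and were not tested.

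The windows of Nfix had a median GC content of 56.4% and those of Casz1 56.7%, while those of Nfib had 45.3% and those of Macrod2 43.6%. The windows of Macrod2, a macrodomain gene, had a median distance of 510901 bp from the nearest start site.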
